A study of Mus musculus with 6 samples.

Results

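The miR-29 family of the mouse comprises 4 loci, Mir29a, Mir29b-1, Mir29b-2 and Mir29c, which were taken by name from the 2262 features of the small RNA count table of Achilles tendon, where all 4 were present. RNA-seq and small RNA-seq covered the Achilles tendons of mice at 4 weeks of age in 3 genotypes, with 1 library per genotype and assay, 6 libraries in all. The labels name the same tendon sample for both libraries of a genotype. Control mice carried floxed Dicer alleles without Cre (Dicer f/f), ScxHt mice carried ScxCre/+ Knock In with Dicer +/+, and Dicer cKO mice carried ScxCre/+ Knock In with Dicer f/f. The Cre stands at the Scx locus, so that ScxHt and Dicer cKO mice share the loss of 1 functional Scx copy, and Dicer is excised only where Scx drives Cre, where the study considers low and mosaic recombination possible. DICER is the enzyme that cuts hairpin precursors into mature miRNAs. With 1 library per genotype there was no replicate error to set a difference against, no test was made, and every interval below is a 95% interval for counting error alone.

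Mature miR-29 guides the silencing complex to matches of its seed in the 3′ UTRs of messenger RNAs. Many of its known targets encode collagens, elastin, fibrillin and other matrix proteins, and loss of miR-29 is known to accompany matrix deposition in fibrosis of heart, lung and liver. In tendon, miR-29a is known as a repressor of type III collagen. The family is made by fibroblasts and also by skeletal muscle, so that in tissue RNA fewer cells of a type and less RNA per cell cannot be told apart.

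The mature sequences, from RefSeq on GRCm38.p6, are shown with the seed (bases 2 to 8 from the 5′ end) in capitals, because the members share the seed and differ downstream of it.
miR-29a-3p: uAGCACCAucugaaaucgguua
miR-29b-3p: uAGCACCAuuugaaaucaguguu
miR-29c-3p: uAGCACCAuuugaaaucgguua
Of 1738 mature miRNA entries in the RefSeq table, 4 had this seed, and all 4 belonged to the family. With positions counted from 1 at the 5′ end, miR-29c-3p differed from miR-29a-3p by the single substitution C10U. The miR-29b-3p sequence differed from miR-29c-3p by G18A, U21G and A22U and was 1 base longer. Mir29b-1 and Mir29b-2 encode the identical miR-29b-3p, and reads of this sequence could not be assigned to either locus.

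The 4 loci form 2 clusters. Mir29b-1 (chr6:31063023-31063093) and Mir29a (chr6:31062660-31062747) lie on the minus strand of chromosome 6, with 275 bases between them. Mir29b-2 (chr1:195037040-195037120) and Mir29c (chr1:195037547-195037634) lie on the plus strand of chromosome 1, with 426 bases between them. In GENCODE vM21, Mir29b-2 and Mir29c fall entirely within an exon of the noncoding RNA A330023F24Rik on the same strand, and also within an exon of Cd46, a complement regulator gene, on the opposite strand. Mir29b-1 overlaps the noncoding RNA Gm27019 by 2 bases.

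Library totals were 8435829 to 10986541 counts in small RNA-seq and 14936241 to 16218733 in RNA-seq. Dicer1 itself had 1919 reads in Control, 2025 in ScxHt and 1621 in Dicer cKO, a Dicer cKO/Control ratio of 0.877 (0.821 to 0.938), but the count covers the whole gene and not the floxed part alone. Markers of tendon fibroblasts were abundant in every library (Fmod 99254, 111544 and 43491 reads, Tnmd 10586, 15431 and 9668 reads, in the order Control, ScxHt, Dicer cKO). Scx, the tendon transcription factor, had 1055, 686 and 371 reads. It is also the knock-in locus, with 1 functional copy in ScxHt and Dicer cKO, so its reads are no plain measure of fibroblasts. All 7 tendon fibroblast markers had intervals below 1 in Dicer cKO/Control and 5 were below 0.60, beside 28.5% and 4.19% of all genes. Their median log2 ratio was -0.99, and 0.19 in ScxHt/Control. Fmod, Thbs4, Comp and Tnmd are also in the list of tendon matrix genes below, and Col1a1 in that of fibril-forming collagens. Results of these lists are therefore not independent. Markers of other cells moved with the genotype. In Dicer cKO/Control, all 10 skeletal muscle markers, all 7 measured Schwann cell markers and all 5 measured erythroid markers had intervals above 1, beside 21.6% of all genes. The median log2 ratios of these lists were 0.85, 2.90 and 1.18. The Schwann cell markers Mal and Cldn19, with 36 and 17 reads in Control, passed the minimum only through their Dicer cKO reads (390 and 142). In ScxHt/Control the medians of these lists were -0.29, -0.15 and -0.04, without Mal and Cldn19, which lay below the minimum there. The muscle markers were divided there, with 7 intervals below 1 and 3 above 1, beside 23.8% and 26.4% of all genes. Their ratios ran from 0.458 (Ttn) to 4.70 (Myh4). Of 5 cartilage markers, 3 had intervals below 1 and 1 above 1 in Dicer cKO/Control (median -0.23, and 0.37 in ScxHt/Control). Of 6 adipocyte markers, 2 were below and 3 above (median 0.15, and 0.22 in ScxHt/Control). Among all genes, 28.5% were below and 21.6% above in Dicer cKO/Control. The 8 muscle miRNA loci held 6.34% of the small RNA counts in Control, 4.38% in ScxHt and 11.9% in Dicer cKO. The part of these cells in the values below was not tested, and scalings that leave out the muscle miRNAs are given with the family total.

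Mir29a was the main source of the family in every genotype. It had 13829 reads in Control, 10302 in ScxHt and 7624 in Dicer cKO, or 1259, 1221 and 904 RPM (reads per 1000000 counts of the library). This placed it 55th, 58th and 63rd among the features with reads. Mir29a thus held 84.9%, 82.4% and 80.7% of the family total, which was counted as Mir29a plus Mir29c plus the larger of the Mir29b loci, since reads of miR-29b may have been counted at both. If they were split between the loci instead, the plain sum of the 4 applies, with which the ratios of the family total given below were 0.672 in Dicer cKO/Control, 0.873 in ScxHt/Control and 0.757 in Dicer cKO/ScxHt.

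Mir29c came next. Its reads were 2012 in Control, 1721 in ScxHt and 1449 in Dicer cKO, or 183, 204 and 172 RPM. The 3 libraries were closer to each other for Mir29c than for Mir29a. Mir29b-1 had 447, 485 and 373 reads and Mir29b-2 had 434, 453 and 366 reads, in the same order. The near equality of the Mir29b loci in each library (quotients of 1.03, 1.07 and 1.02) goes with the mature sequence they share, so they were read as 1 measurement of miR-29b and not as a measure of either cluster. In RPM, Mir29b-1 stood at 40.7 in Control, 57.5 in ScxHt and 44.2 in Dicer cKO.

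**Figure D1:**
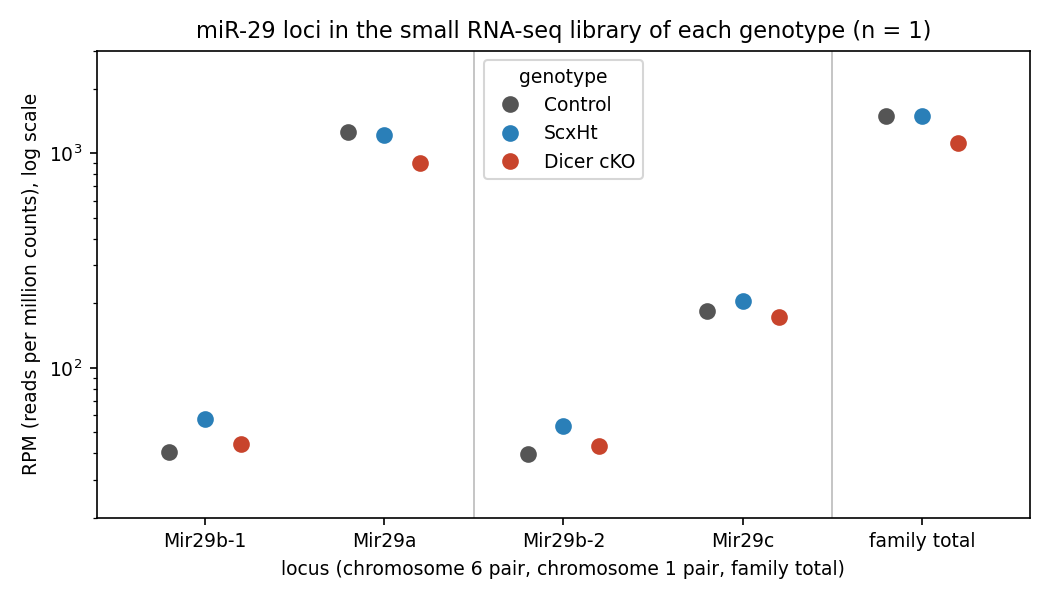
Level in RPM (log scale) of each miR-29 locus and of the family total, with 1 point for the single small RNA-seq library of each genotype and grey lines between the chromosome 6 pair, the chromosome 1 pair and the total. Mir29a lies between 904 and 1259 in all 3 libraries, and the Dicer cKO point is the lowest for Mir29a, Mir29c and the total but not for the Mir29b loci.

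To compare genotypes, the counts of each pair of libraries were divided by size factors from DESeq2 and expressed as ratios of normalized counts. In Dicer cKO/Control, Mir29a had a ratio of 0.632 (0.614 to 0.650). Only 5.69% of the 334 features above the minimum baseMean of 15 had a lower ratio. Mir29c had a ratio of 0.825 (0.771 to 0.884), and 26.0% of features had a lower one. Mir29c thus lay within the broad middle of the features and Mir29a near their lower end.

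The Mir29b loci had ratios of 0.956 (0.831 to 1.10) and 0.967 (0.839 to 1.11), whose intervals held 1. At 366 to 447 reads per locus and library, a difference in miR-29b between Dicer cKO and Control was not detectable on this scale. Mir29a and Mir29c were the 2 members with an interval below 1 on this scale, as 31.7% of all features were, and no locus had one above 1, as 31.1% of features did. These calls depended on the scaling, except that of Mir29a. With total counts Mir29c was 0.938 (0.876 to 1.004), and with total counts without the muscle miRNA loci it was 0.997 (0.931 to 1.07), so that its interval held 1. On the latter scale the Mir29b loci were 1.15 (1.004 to 1.33) and 1.17 (1.01 to 1.34), with intervals above 1. None of the 4 loci passed the lower ratio threshold of 0.60 or the upper one, the reciprocal of 0.60 rounded to 2 decimals, beyond which lay 4.19% and 8.38% of features.

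The family total was 16288 reads in Control, 12508 in ScxHt and 9446 in Dicer cKO. Its Dicer cKO/Control ratio was 0.665 (0.648 to 0.682), a log2 ratio of -0.59. Abundant features as a group were also somewhat lower: the 131 with a mean of at least 1000 normalized counts had a median log2 ratio of -0.13, and 80 of them had a ratio below 1.

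In ScxHt/Control, which shares the Control library with the comparison above, Mir29a had a ratio of 0.839 (0.818 to 0.861) and Mir29c of 0.964 (0.903 to 1.03). The Mir29b loci pointed the other way, at 1.22 (1.07 to 1.39) and 1.18 (1.03 to 1.34). One locus had an interval below 1, beside 32.8% of 332 features, and the 2 Mir29b loci, which share their mature sequence, had one above 1, beside 24.4%. With total counts, Mir29c had an interval above 1 as well (1.11, 1.04 to 1.19). The family total was 0.865 (0.845 to 0.886). No locus passed the lower threshold, below which lay 6.93% of features, or the upper one, above which lay 3.01%.

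In Dicer cKO/ScxHt, where both libraries carry ScxCre, all 4 loci were lower in Dicer cKO with intervals below 1, as were 33.9% of 322 features, and none had an interval above 1, as 25.8% did. The ratios were 0.740 for Mir29a, 0.769 for Mir29b-1, 0.808 for Mir29b-2 and 0.842 for Mir29c, and the family total was 0.755 (0.735 to 0.776). With total counts without the muscle miRNA loci, the interval of Mir29b-2 held 1 (0.877, 0.762 to 1.01). The members spanned a narrower range against ScxHt than against Control. None of them passed the lower threshold (2.17% of features did) or the upper one (11.2% did).

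**Figure D2:**
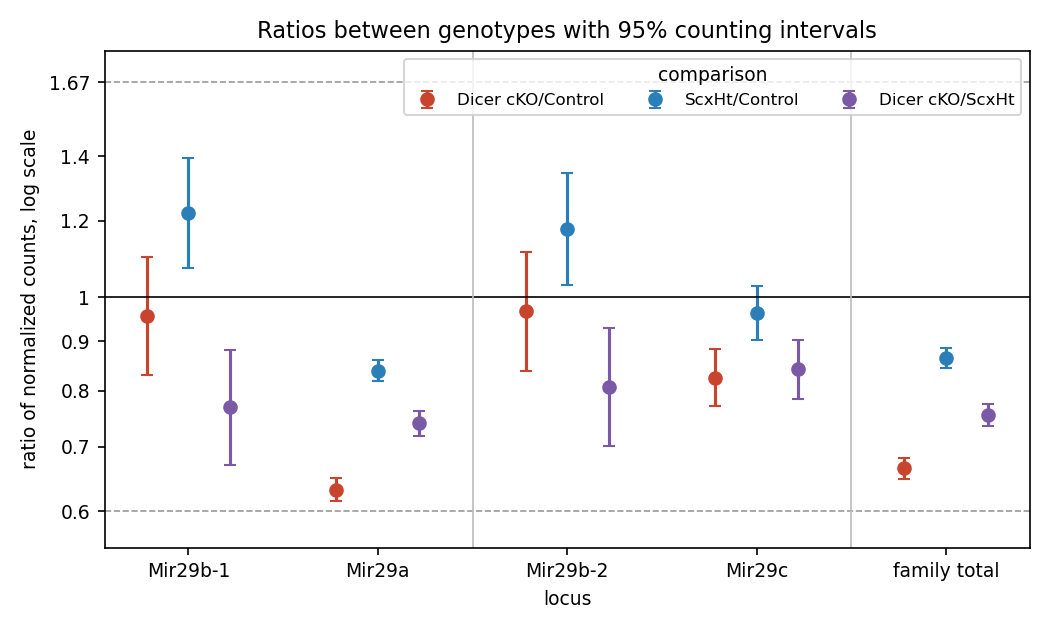
Ratio of normalized counts (log scale) for each miR-29 locus and the family total in the 3 comparisons, with bars for the 95% counting interval, a solid line at 1 and dashed lines at the lower and upper ratio thresholds. Mir29a has the lowest ratio of the family in Dicer cKO/Control (0.632), the Mir29b loci lie above 1 in ScxHt/Control, and no point crosses a dashed line.

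The size of the family difference depended on how libraries were scaled. With total counts as the scale, the family stood at 1482.5 RPM in Control, 1482.3 in ScxHt and 1119.7 in Dicer cKO, ratios to Control of 1.0 and 0.755. With the muscle miRNA loci taken out of the totals, these ratios were 0.979 and 0.803. When the family was set against the 7 fibroblast miRNA loci (the Mir199 loci, Mir214, Mir21a, Mir143 and Mir145a), a scale chosen after the values were seen, they were 1.17 (1.15 to 1.20) and 0.896 (0.873 to 0.919). Most reads of that scale were from the Mir199 loci (559555, 558322 and 546684 of 1754822 in Control), so it is nearly a scale of these alone. Whether the same reads were counted at several Mir199 loci was not tested. Dicer cKO was below Control and below ScxHt under all 7 scalings. ScxHt was below Control under some and above it under the fibroblast scale.

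**Figure D3:**
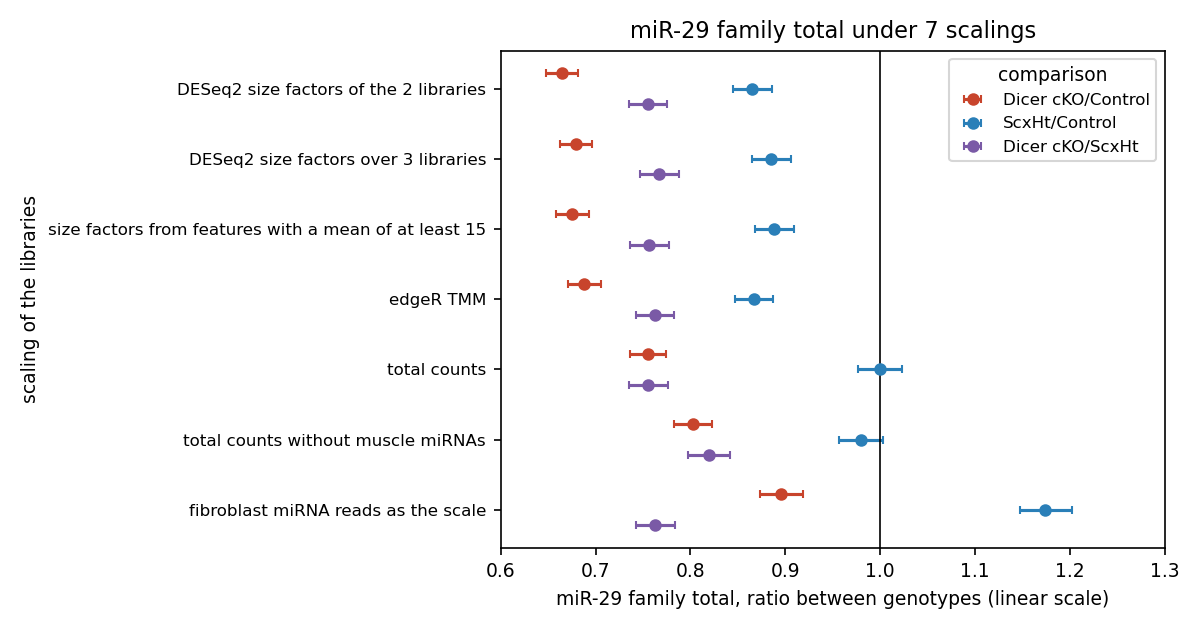
Ratio of the miR-29 family total between genotypes (linear scale) under 7 scalings of the libraries, with bars for the 95% counting interval and a line at 1. The Dicer cKO/Control points run from 0.665 to 0.896 and stay below 1, the Dicer cKO/ScxHt points stay between 0.755 and 0.820, and the ScxHt/Control points run from 0.865 to 1.17 and cross it.

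The balance between the clusters needs no scaling, since Mir29a and Mir29c are read in the same library. The number of Mir29a reads per Mir29c read was 6.87 in Control, 5.99 in ScxHt and 5.26 in Dicer cKO. The Dicer cKO quotient was 0.766 times that of Control (0.712 to 0.824) and 0.879 times that of ScxHt (0.815 to 0.948), and the ScxHt quotient was 0.871 times that of Control (0.813 to 0.933). All 3 differences exceeded counting error, and the chromosome 6 member was the one with the lower share in the libraries with ScxCre.

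Within clusters the quotients moved as well. Mir29a had 30.9 reads per Mir29b-1 read in Control, 21.2 in ScxHt and 20.4 in Dicer cKO. The Control library stood apart and the others differed by less than counting error (0.962, 0.838 to 1.10). Mir29c had 4.64, 3.80 and 3.96 reads per Mir29b-2 read. The Mir29b counts may hold reads of both clusters, so these quotients are not a measure of processing within a single transcript.

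In RNA-seq, the hairpin loci themselves had 0 to 16 reads per library, below the minimum baseMean of 50, so that the precursors could not be compared. Lncpint, a noncoding RNA gene 19471 bases from Mir29b-1, had 2193 reads in Control, 1679 in ScxHt and 1366 in Dicer cKO. Its ratios to Control were 0.647 (0.604 to 0.692) in Dicer cKO and 0.733 (0.688 to 0.782) in ScxHt. Cd46, which overlaps the chromosome 1 cluster, had 88, 74 and 143 reads, with ratios to Control of 1.69 (1.28 to 2.23) in Dicer cKO and 0.805 (0.583 to 1.11) in ScxHt. The gene beside the Mir29a cluster was thus lowest and the gene across the Mir29c cluster highest in Dicer cKO. The strand setting of the counting is not given in the sources used here, and without it reads of Cd46 and of A330023F24Rik cannot be told apart. A330023F24Rik and Gm27019 were not found under these symbols among the RNA-seq features. Other names were not tried, so neither was analysed here.

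Among 129 small RNA features with a mean of at least 1000 normalized counts, those nearest to the family total in both log2 ratios to Control were Mir181a-2, Mir181a-1, Mir541, Mir221 and Mir151. Mir181a-2 had 7902 reads in Control, 5954 in ScxHt and 4828 in Dicer cKO, ratios of 0.70 in Dicer cKO/Control and 0.849 in ScxHt/Control. Mir541 had ratios of 0.678 and 0.815, and Mir221 of 0.683 and 0.932. The likeness rests on 3 libraries and both Mir181a loci encode the same mature miR-181a.

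The direction of the collagens and other matrix genes was set beside that of the family. Matches to the miR-29 seed were searched on the transcribed strand of the 3′ UTRs in GENCODE vM21 (GRCm38), taking the longest per gene, as an 8mer (TGGTGCTA), a 7mer-m8 (TGGTGCT) or a 7mer-A1 (GGTGCTA), each site being counted once under its longest form. A UTR was found by symbol for 10975 of the genes above the minimum. Matches are shown for the main tendon collagens and 4 other matrix genes, as up to 30 bases ending at the match, with the match in capitals.
Col1a1: gggtggggtgggaaggaatttcTGGTGCTA
Col3a1: ttccaacttcaaaatgtctcaaTGGTGCTA
Col5a1: aattttttacacttgtctcttgTGGTGCTA
Col5a2: attataacttttcttttaatgaTGGTGCTA
Col6a3: ctctgcacgtgacctgtcaataTGGTGCTA
Col15a1: aagtcaaatccaatccacatatTGGTGCTA
Col1a2: ttttgttttgcttgcaacacaaaGGTGCTA
Eln: tgactcgcgacctcatcaacgtTGGTGCTA
Fbn1: cagtaggtttctgttgtctgttTGGTGCTA
Sparc: ttggctgttccgcctggggataaGGTGCTA
Prelp: atcattacggctgaaagcaaccTGGTGCTA
The capitals lie at chr11:94952538-94952545 (plus strand) for Col1a1, chr1:45348982-45348989 (plus) for Col3a1, chr2:28038034-28038041 (plus) for Col5a1 and chr1:45374965-45374972 (minus) for Col5a2. They lie at chr1:90767411-90767418 (minus) for Col6a3, chr4:47312500-47312507 (plus) for Col15a1 and chr6:4541178-4541184 (plus) for Col1a2. Those of Eln are at chr5:134703736-134703743 (minus), of Fbn1 at chr2:125301173-125301180 (minus), of Sparc at chr11:55395469-55395475 (minus) and of Prelp at chr1:133910807-133910814 (minus).

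Seed matches were frequent in the collagens. An 8mer was found in 6 of 11 fibril-forming collagens (54.5%) and 12 of 34 collagens above the minimum (35.3%), beside 3.63% of all genes with a UTR and 2.31% of the 3027 genes with UTRs of similar length. Any match was found in 67.6% of the collagens and 20.8% of all genes. Col5a1 held 4 matches, of which 2 were 8mers, and Col1a1 and Eln held 3 each. Of 14 tendon matrix genes outside the collagens, Prelp was the single one with a match. The collagens and target genes were listed from general knowledge of miR-29 targets, and their match frequency is not independent of that choice.

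**Figure D4:**
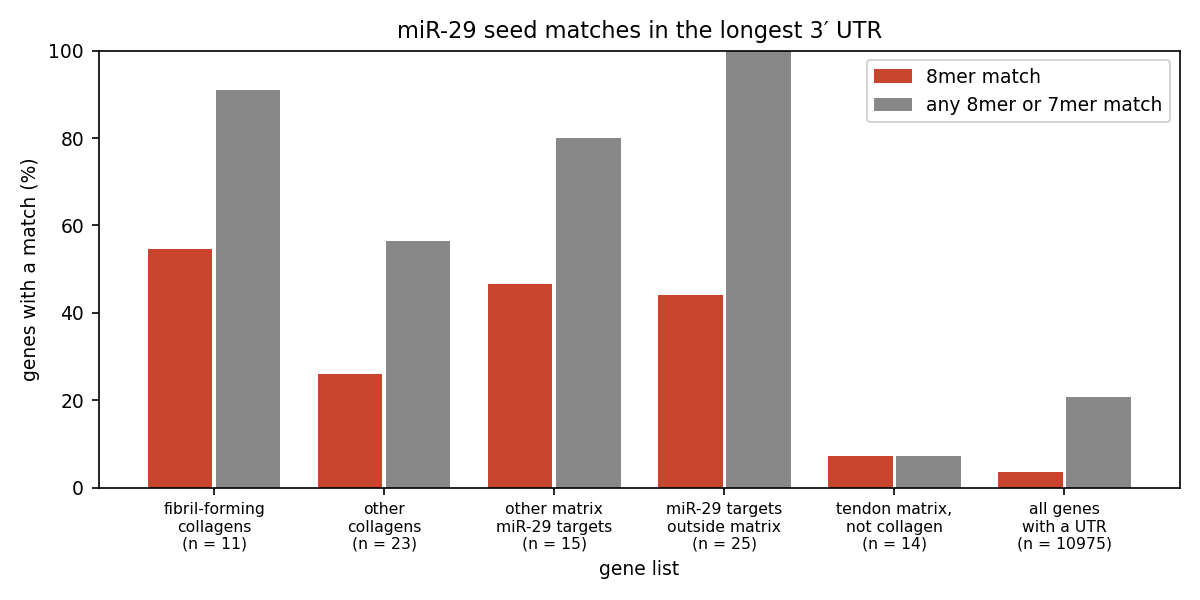
Percentage of genes with a miR-29 8mer (red) or any 8mer or 7mer match (grey) in the longest 3′ UTR, for 5 gene lists and for all 10975 genes with a UTR. The fibril-forming collagens stand at 54.5% for the 8mer and all genes at 3.63%, while the tendon matrix genes outside the collagens stand at 7.14%.

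The fibril-forming collagens, which build the tensile fibrils of tendon, were lower in Dicer cKO than in Control. Of 11 measured, 9 had intervals below 1 and none above 1, beside 28.5% and 21.6% of 13404 genes. Their median log2 ratio was -0.53, that of all genes -0.03. Col1a1, the main chain of type I collagen, had 1261322 reads in Control, 925996 in ScxHt and 658168 in Dicer cKO, a ratio of 0.542 in Dicer cKO/Control. Col1a2, its partner chain, had 708695, 658387 and 391822 reads and a ratio of 0.574. Col5a1, a type V chain that sets fibril diameter, had 12893, 16233 and 6869 reads and a ratio of 0.553. These were the 3 fibril-forming chains below 0.60, as were 4.19% of all genes.

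Col3a1, the type III chain of young and healing tendon, had 56697 reads in Control, 81063 in ScxHt and 34511 in Dicer cKO. It was thus lowest in Dicer cKO and highest in ScxHt, with ratios to Control of 0.632 (0.624 to 0.641) and 1.37 (1.35 to 1.38). Col5a2 took the same order (17432, 24570 and 11641 reads), as did Col11a1 (21735, 27157 and 15567 reads).

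Other collagens lay on both sides of 1. Of 23 above the minimum of 33 listed, 11 had intervals below 1 and 6 above 1 in Dicer cKO/Control. Among all genes these shares were 28.5% and 21.6%. The median log2 ratio of the 23 was -0.14. The type VI chains, which form the pericellular microfibrils, were lower: Col6a1 had a ratio of 0.641, Col6a2 of 0.629 and Col6a3 of 0.709. Col15a1, a basement membrane zone collagen, stood at 0.654, Col12a1, a fibril-associated collagen, at 0.852 and Col8a2, a network-forming chain with no seed match, at 0.589.

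On the other side, Col22a1, a collagen of the myotendinous junction, had 999 reads in Control, 1071 in ScxHt and 2023 in Dicer cKO, a ratio of 2.10 (1.95 to 2.27). Col26a1 had 14, 37 and 92 reads and a ratio of 6.82 (3.87 to 13.0). Col26a1 passed the minimum only through its Dicer cKO reads (baseMean 53.7), and lay below the minimum in ScxHt/Control (25.3). Its place above the threshold is therefore not independent of its entry. Col22a1 and Col26a1 were the 2 collagens above the upper threshold, as were 3.87% of all genes, and both held 7mer matches. Col4a1, a vascular basement membrane chain with an 8mer and named here after its value was seen, had a ratio of 1.11 (1.08 to 1.14). Skeletal muscle and Schwann cell markers, given above, were higher in the same library.

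Over all 34 collagens above the minimum, 20 had intervals below 1 and 6 above 1 in Dicer cKO/Control, beside 28.5% and 21.6% of all genes. Their median log2 ratio was -0.23. In ScxHt/Control the median over 33 was 0.10, with 15 intervals above 1 and 10 below 1, beside 26.4% and 23.8% of all genes. Col13a1, a transmembrane collagen, was the only one past a threshold there (0.317), beside 4.71% of all genes below the lower threshold and 3.03% above the upper one. It had 178 reads in Control, 59 in ScxHt and 120 in Dicer cKO. In Dicer cKO/ScxHt the median was -0.33, with 19 of 34 intervals below 1 and 9 above 1, beside 30.6% and 24.9% of all genes. Of these 34, 9 were below 0.60 and 4 above the upper threshold, beside 5.68% and 7.68% of all genes. Col26a1 was among the 4, and here too passed the minimum only through its Dicer cKO reads. The family total and the collagen median were thus both lower in Dicer cKO than in Control and than in ScxHt. In ScxHt/Control they pointed opposite ways, with the family total at 0.865 and the collagen median above 0, though with total counts the family total was 1.0. The opposite direction did not hold for the fibril-forming collagens alone. Their median log2 ratio in ScxHt/Control was -0.09, with 5 of 11 intervals above 1 and 5 below 1. The type I chains, which had the most reads, were lower in ScxHt than in Control (Col1a1 0.703, Col1a2 0.890).

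Other matrix genes known as miR-29 targets split in the same way. Of 15, 8 had intervals below 1 and 6 above 1 in Dicer cKO/Control, beside 28.5% and 21.6% of all genes, with a median log2 ratio of -0.22. Lox, the enzyme that crosslinks collagen and elastin, had 19679 reads in Control, 21890 in ScxHt and 10378 in Dicer cKO, a ratio of 0.548. Itga11, a collagen receptor subunit, had 1260, 1179 and 700 reads and a ratio of 0.577. Fbn1, the fibrillin of elastic microfibrils, stood at 0.613 and Sparc, a collagen-binding glycoprotein, at 0.676.

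Eln, which encodes elastin, had 1339 reads in Control, 1419 in ScxHt and 1878 in Dicer cKO, a ratio of 1.46 (1.36 to 1.56). Lama2, a laminin chain of muscle and Schwann cell basement membranes, with no seed match in its annotated UTR, had 4358, 4232 and 6110 reads and also a ratio of 1.46 (1.4 to 1.51). Eln and Lama2 were named after their values were seen. An 8mer was thus present in genes on either side of 1.

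Of 25 known targets outside the matrix, 16 had intervals below 1 and 2 above 1, beside 28.5% and 21.6% of all genes, with a median log2 ratio of -0.15 in Dicer cKO/Control. Klf4, a transcription factor, had 2323 reads in Control, 1634 in ScxHt and 816 in Dicer cKO, a ratio of 0.365. Pdgfc, a growth factor, had 418, 407 and 171 reads and a ratio of 0.425. Mcl1, a survival factor, stood at 0.675 and Igf1, a growth factor, at 0.726. Dnmt3a, a DNA methyltransferase with 6 matches that was named after its value was seen, had 2828, 2734 and 2871 reads, a ratio of 1.05 (1.0 to 1.11). None of the 25 was above the upper threshold, as were 3.87% of all genes.

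Tendon matrix genes outside the collagens, which held almost no seed matches, were lower still in Dicer cKO. All 14 had intervals below 1 and 6 were below 0.60, beside 28.5% and 4.19% of all genes, and the median log2 ratio was -0.58. Fmod, Comp, Thbs4 and Tnmd of this list were also counted among the tendon fibroblast markers above. Prelp, a small leucine-rich proteoglycan and the list's only gene with an 8mer, had 9313 reads in Control, 8716 in ScxHt and 1486 in Dicer cKO, a ratio of 0.166. Fmod, which binds collagen fibrils, stood at 0.455, Comp, a cartilage and tendon matrix protein, at 0.461 and Dcn, decorin, at 0.542. In ScxHt/Control this list had a median log2 ratio of 0.40, and 12 of its 14 intervals were above 1, beside 26.4% of all genes. Lower ratios in Dicer cKO were therefore not particular to genes with a miR-29 match.

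**Figure D5:**
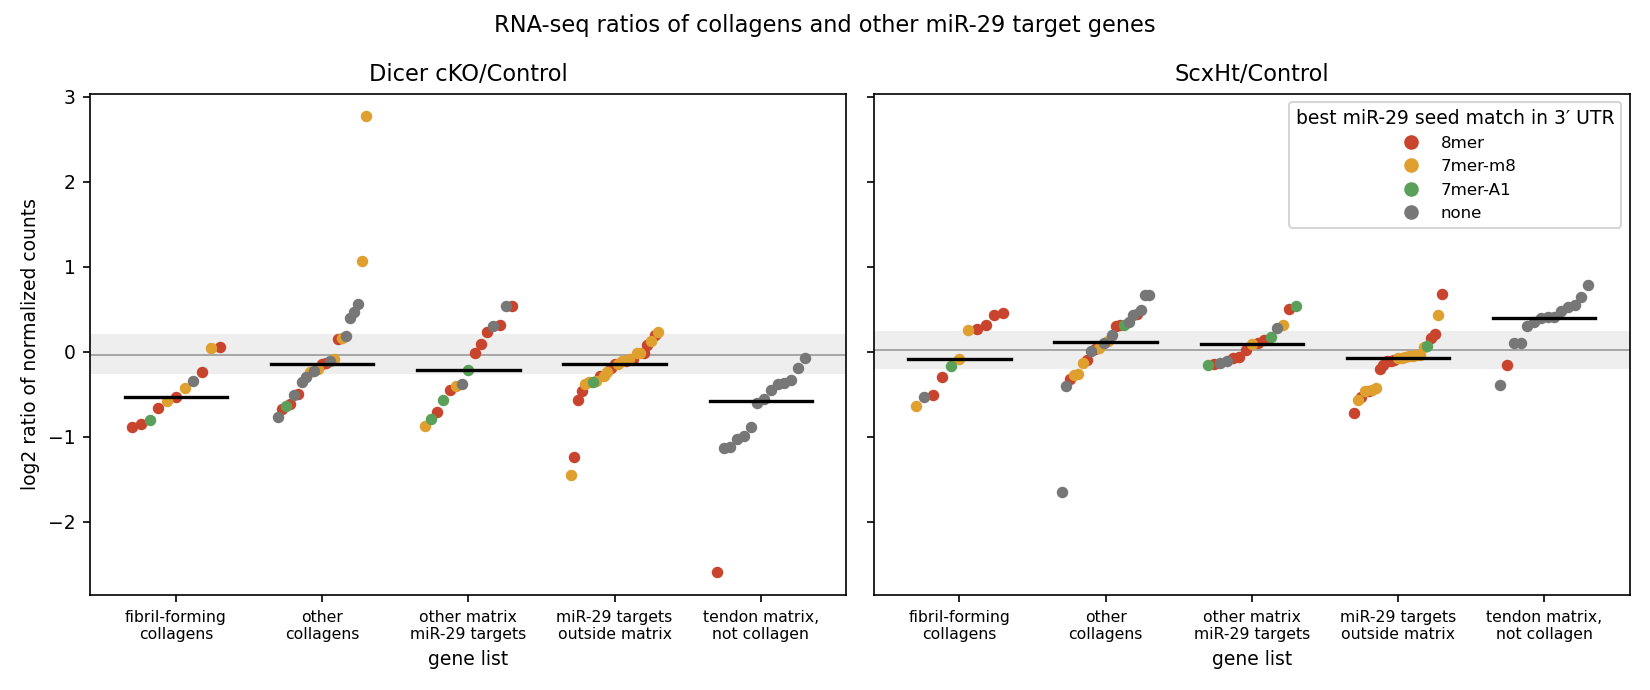
Log2 ratio of each gene above the minimum baseMean in 5 gene lists, for Dicer cKO/Control (left) and ScxHt/Control (right), coloured by the best miR-29 seed match in the 3′ UTR, with black bars for the list medians and a grey band and line for the middle 50% and the median of all genes with a UTR. In Dicer cKO/Control the medians run from -0.58 (tendon matrix genes outside the collagens) to -0.14 (other collagens), and in ScxHt/Control from -0.09 to 0.40.

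Across all genes, the seed match went with little difference in level. In Dicer cKO/Control the median log2 ratio was -0.05 for 398 genes with an 8mer, -0.06 for 1459 with a 7mer-m8 as the best match, -0.07 for 422 with a 7mer-A1 and -0.03 for 8696 with none. The 115 genes with 3 or more sites had a median of -0.05. Among collagens, the 12 with an 8mer had a median of -0.51 and the 22 without one of -0.22. In ScxHt/Control the 12 with an 8mer had a median of 0.29 and the 21 without one above the minimum there of 0.04. Collagens with an 8mer were thus the lower group in Dicer cKO and the higher group in ScxHt, each against the same Control library, and no test was possible.

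Genes known as regulators of the miR-29 loci included the repressors Myc, Yy1 and NF-κB and the TGF-β pathway. Of 14, 9 had intervals below 1 and 2 above 1 in Dicer cKO/Control, beside 28.5% and 21.6% of all genes, with a median log2 ratio of -0.22. Myc had 83 reads in Control, 41 in ScxHt and 46 in Dicer cKO, ratios to Control of 0.576 (0.392 to 0.835) in Dicer cKO and 0.473 (0.317 to 0.696) in ScxHt. It was the only regulator past a threshold in either comparison, and 4.19% and 4.71% of all genes lay below 0.60 in them. Nfkb1, an NF-κB subunit, stood at 0.711 and 0.887, Yy1 at 0.702 and 0.886, and Smad3, a TGF-β signal transducer, at 0.876 and 1.05 in the same order.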

How the data were processed

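Achilles tendon RNA of 3 genotypes was sequenced by the authors, who mapped trimmed reads with TopHat and Bowtie2 to GRCm38 and assigned them to features with HTSeq, as their methods and processing notes say. Versions, strand setting and treatment of reads that fit several loci are not given in the sources used here. The deposited values used are raw counts per feature, not normalized. The deposited RPKM values were not used. After 463 repeated lines of RNA-seq and 3 of small RNA-seq were dropped, 53726 and 2262 features remained.

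Size factors of the 2 libraries of each comparison came from DESeq2 1.42.0 (R 4.3.3). Ratios and Clopper-Pearson intervals (95%) were computed in Python 3.11.15 with scipy 1.17.1, and intervals of quotients by the Woolf method. They cover counting error only, and leave out the error of the size factors and differences between mice. Features needed a baseMean above 15 in small RNA-seq and 50 in RNA-seq. Ratios below 0.60 or above its reciprocal, rounded to 2 decimals, were counted, after the thresholds of the study. Reads of PCR copies are not independent molecules. The procedure was run on simulated data that held counting error alone, the error that the intervals assume. That run checks the computation and says nothing of differences between mice or of PCR copies. Alternatives were edgeR 4.0.16 TMM, total counts, size factors over 3 libraries or from abundant features, totals without muscle miRNAs, other minima and a pseudocount of 1.

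Mature sequences and the positions of the loci came from RefSeq (all 4 loci matched). Overlapping genes and the extents of 3′ UTRs came from GENCODE vM21, and the UTR bases from the GRCm38 genome sequence. A UTR was found by symbol for 82.1% of 13365 genes. Genes of a list could be named if past a threshold in either comparison with Control or among its 5 with the most counts. Not all of these are named, and others are marked. The members and lists were chosen with earlier results of these data known.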

Additional observations from a re-analysis of the deposited data

How the results depend on the processing

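The Mir29a to Mir29c balance does not depend on the scaling. It kept its direction and stayed within its counting interval under both alternatives in all 3 comparisons. These alternatives could move it little. A pseudocount of 1 is small beside 1449 reads or more, and the Mir29b reads added to both sides were nearly equal. Of 45 alternative values of the family total, the balance and the collagen median, 34 stayed within the range set around the value reported. For the family total and the balance this was the counting interval. For the collagen median it ran between the medians of the lower and upper interval limits of the genes. That range is not an interval for the median itself, so the count of 34 is no measure of its stability. The Dicer cKO/Control family total (0.665) moved to 0.688 with edgeR TMM, 0.755 with total counts, 0.803 with total counts without muscle miRNAs and 0.896 with fibroblast miRNA reads as the scale. The ScxHt/Control family total (0.865) moved to 1.0 with total counts, 0.979 without muscle miRNAs and 0.888 with size factors from features with a mean of at least 15, and it reversed to 1.17 with the fibroblast scale. The Dicer cKO/ScxHt family total (0.755) moved to 0.820 without muscle miRNAs. The fibroblast scale, chosen after seeing the data, also reversed Mir29c in Dicer cKO/Control (1.11) and Mir29a in ScxHt/Control (1.14). Whether the interval of Mir29c held 1 also changed with total counts, as given with its ratios. For the Mir29b loci it changed with total counts without muscle miRNAs, as given with their ratios, but not with total counts. The collagen median log2 ratio moved to 0.21 with total counts in ScxHt/Control (0.10 reported) and to -0.53 with a minimum baseMean of 200 in Dicer cKO/ScxHt (-0.33 reported), the latter because fewer genes entered. The cause of the other moves was not tested. No paired analysis was possible because each genotype had 1 library per assay, and for the same reason no replicate could be left out. Depth limits the Mir29b loci, at 366 to 485 reads, and the hairpins in RNA-seq.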
